A study of Mus musculus with 32 samples.

Results

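The 48 genes described here encode proteins that build ribosomes: RNA polymerase I and its factors, nucleolar proteins, the protein cores of 2 snoRNP classes, the small-subunit processome and the factors that mature both ribosomal subunits. They were chosen by name from general knowledge of the pathway, with earlier results of these data known, and each matched 1 of the 41388 genes listed in the count tables. All 48 passed the filter on low counts in both cohorts of the series. Their levels were set beside those of Mycn and Myc, cohort by cohort, to ask whether the group moves with Mycn.

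Ribosome biogenesis begins in the nucleolus, where RNA polymerase I transcribes the ribosomal RNA precursor. Small nucleolar RNA-protein particles (snoRNPs) then guide its chemical modification, the processome cleaves it, and assembly factors ripen the small and large subunits until export to the cytoplasm. MYC proteins bind with their partner MAX to E-box sequences, above all CACGTG, and the genes of ribosome production are among their best known targets in many cell types. Mycn and Myc encode related members of that family, and both are expressed in blood stem cells.

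RNA-seq was deposited for 24 libraries of C57BL/6 mouse stem and progenitor cells, each made from pooled male and female mice. Hematopoietic stem cells (HSC) were sorted as Lin-, cKit+, Sca1+, CD150+, CD48- and multipotent progenitors (MPP) as Lin-, cKit+, Sca1+, CD150-, CD48-. The Vav cohort, 8 weeks old, held 3 libraries each of HSC and MPP labelled wild-type (control) or Jarid2-KO; the Vav promoter drives Cre throughout the blood system. The Mx1 cohort, labelled 10 weeks and 2 months after pIpC, held 2 libraries each of HSC and MPP labelled wild-type (control), Jak2V617F, or Jak2V617F with Jarid2-KO (double mutant). Mx1-driven Cre is switched on by the interferon response to pIpC, in blood cells and in other tissues. Every library of a cohort, controls included, is labelled with that cohort's Cre, and every Mx1 library with pIpC. The series text names a Jarid2-KO group of the Mx1 cohort where the sample labels name Jak2V617F, and the labels were followed. Jarid2 encodes a Polycomb repressive complex 2 partner, and Jak2V617F is the activating kinase mutation found in myeloproliferative neoplasms. In bulk samples such as these, fewer cells of a type and less RNA per cell cannot be told apart. The labels call the pools of a group biological replicates, and each p-value compares a difference with the spread among them.

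Total counts ranged from 10473535 to 27232379 in the Vav libraries and from 7852483 to 20724168 in the Mx1 libraries. Jarid2 itself stood at 77.6 to 126 CPM (counts scaled to the library's total) in the Vav controls and 80.2 to 144 CPM in the Jarid2-KO libraries, and at 45.6 to 69.1 CPM in the Mx1 libraries without the Jarid2 deletion and 52.6 to 169 CPM in the double mutants. A count over all exons does not check the deletion of some of them, and which exons were deleted is not given in the labels, so the genotypes rest on the labels throughout. Genes of heart muscle took at most 0.00326% of the counts in the Vav libraries but 0.527% to 9.32% in the Mx1 libraries, with more than 4% in 6 of those 12. These were Control MPP replicate 2, Jak2V617F HSC replicate 2, both Jak2V617F MPP libraries, and replicate 1 of the double-mutant HSC and MPP. Every Mx1 comparison below holds at least 1 of them. The labelled cell types were also checked against marker lists. Summed markers of granulocytes and monocytes (13 genes, none at 0 in any library) reached 1273 to 23634 CPM in the Vav libraries, but 19110 to 80912 CPM in the Mx1 controls, 22700 to 58880 CPM in Jak2V617F and 3036 to 6812 CPM in the double mutants. Summed stem cell markers (9 genes, at most 1 at 0) stood at 885 to 1720 CPM in the Vav libraries, and at 132 to 467, 160 to 447 and 747 to 1282 CPM in those Mx1 groups. The double mutants overlapped neither of the other Mx1 genotypes in either list. All 8 Mx1 control and Jak2V617F libraries had lower stem cell markers than any Vav library, the labelled HSC included, so their labels are not borne out by these markers. The Mx1 genotype differences below cannot be told apart from the marker differences.

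RefSeq promoter windows of 300 bases (GRCm38.p6, 250 before to 50 after the start) were found for 44 of the 48 genes; Bop1, Fbl, Npm1 and Rrp12 had no entry. The E-box CACGTG, which reads the same on both strands, occurred in 10 of the 44 (22.7%) and in 2187 of all 27025 genes with a window (8.09%). Counted by window, 10 of 52 (19.2%) held it against 7.15% of all windows. The 27025 genes include ones that did not pass the filter on low counts, which all 48 passed. The 11 matches are shown with 30 bases each because MYC and MYCN are known to bind these letters; capitals mark the E-box, 5′ to 3′ on the gene's strand. Imp4 and Nop2 have it before the start (121 and 60 bases), Rrn3 at 215 and 48 bases before it, and the other 7 after the start. A match is a description of the letters in the window and not of binding. The lines give Imp4 at chr1:34439696-34439725 (+), Ltv1 at chr10:13193092-13193121 (-), Mybbp1a at chr11:72441347-72441376 (+), Nle1 at chr11:82908355-82908384 (-), Nop2 at chr6:125131811-125131840 (+), Pes1 at chr11:3963965-3963994 (+), Rrn3 at chr16:13780472-13780501 (+) and chr16:13780639-13780668 (+), Tsr1 at chr11:74898092-74898121 (+), Utp20 at chr10:88826765-88826794 (-) and Wdr43 at chr17:71616220-71616249 (+).
Imp4: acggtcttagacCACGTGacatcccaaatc
Ltv1: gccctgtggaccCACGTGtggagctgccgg
Mybbp1a: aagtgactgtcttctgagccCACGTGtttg
Nle1: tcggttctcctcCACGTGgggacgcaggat
Nop2: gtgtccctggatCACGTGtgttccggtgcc
Pes1: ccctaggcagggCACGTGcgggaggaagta
Rrn3, distal: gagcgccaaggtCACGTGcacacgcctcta
Rrn3, proximal: ttacgctctgctCACGTGggccgcgtcccg
Tsr1: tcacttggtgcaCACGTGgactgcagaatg
Utp20: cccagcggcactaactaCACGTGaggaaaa
Wdr43: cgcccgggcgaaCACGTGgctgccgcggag

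Per length, the 48 genes spanned mean levels of 3.91 to 283 RPKM (counts scaled to the library's total and to gene length) in the Vav cohort (median 20.4) and 2.44 to 220 RPKM in the Mx1 cohort (median 19.0). Npm1, the abundant nucleolar chaperone nucleophosmin, had the highest mean in both cohorts (283 and 220 RPKM). It was followed in both by Nhp2, a core protein of the box H/ACA particles (126 and 153 RPKM), and Nop56, a core protein of the box C/D particles (121 and 111 RPKM). Fbl, the methyltransferase fibrillarin, was listed lowest in both cohorts (3.91 and 2.44 RPKM). Next lowest were Bysl (4.94 RPKM) and Utp20 (5.72 RPKM) in the Vav cohort and Gar1 (3.92 RPKM) and Utp20 (5.53 RPKM) in the Mx1 cohort. How reads matching several loci were counted is not given in the sources used here, so levels of genes with near-identical copies, such as Npm1, are uncertain. The order by RPKM also depends on the gene lengths listed with the counts, and the order by CPM differs. In Vav control HSC replicate 1, Ncl, Npm1 and Nhp2 stood at 1293, 905 and 147 CPM. Their levels there were 127, 340 and 128 RPKM. Lowest counts were 38 (Vav) and 5 (Mx1), both for Fbl.

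**Figure D1:**
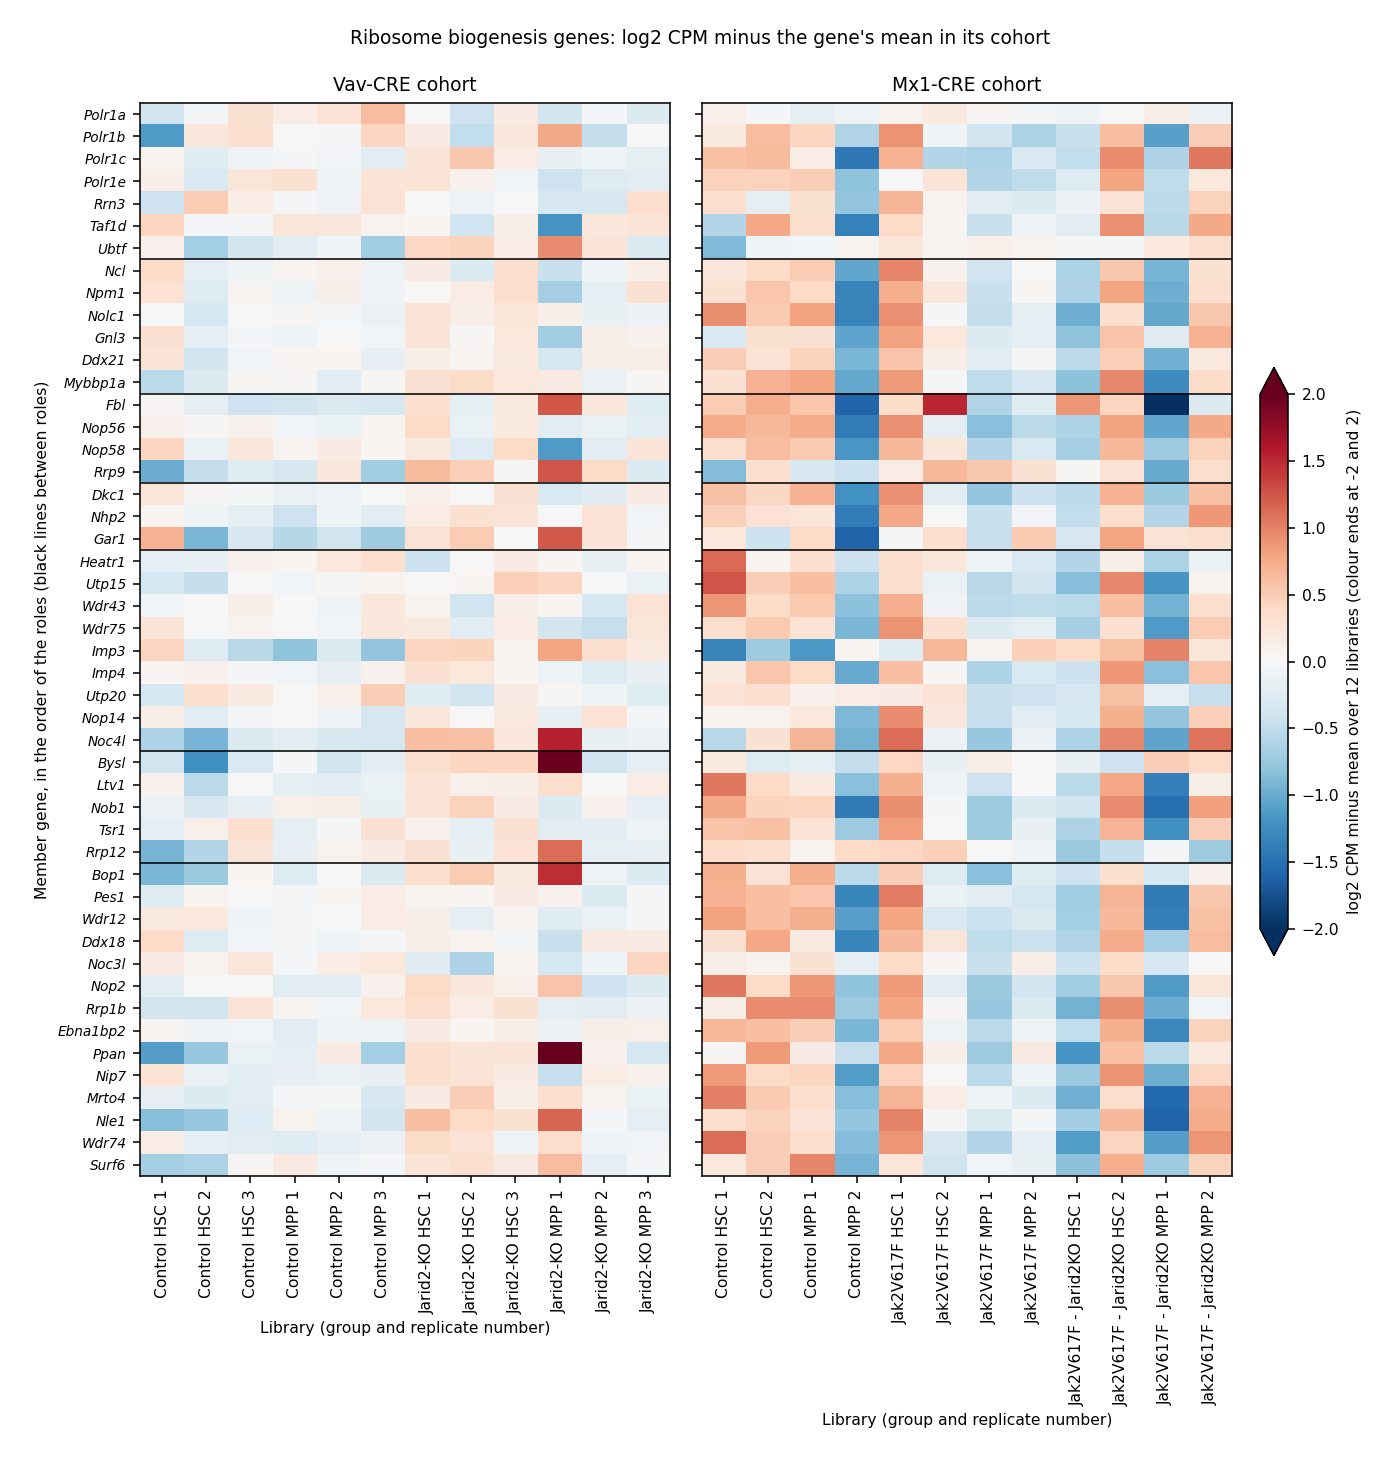
Each row is 1 of the 48 genes, in the order of their roles (black lines between roles), and each column 1 of the 24 libraries; colour gives log2 CPM minus the gene's mean over the 12 libraries of its cohort. In the Mx1 cohort most rows are below their mean in Control MPP replicate 2 and in replicate 1 of both double-mutant groups, and in the Vav cohort Jarid2-KO MPP replicate 1 departs from its group in both directions.

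The Vav cohort was much the steadier: the coefficient of variation of RPKM over its 12 libraries had a median of 17.4% over the 48 genes, against 41.3% in the Mx1 cohort. The summed level of the 48 genes was 7721, 6748 and 7320 CPM in control HSC, 7040, 7226 and 7305 CPM in control MPP, 8240, 7312 and 8455 CPM in Jarid2-KO HSC and 6764, 6718 and 7634 CPM in Jarid2-KO MPP. The groups overlapped in each cell type. In the Mx1 cohort the sum ran from 3092 to 10141 CPM, or 0.309% to 1.01% of a library's counts.

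Mycn rose in the Vav cohort with the Jarid2 deletion. It stood at 122, 109 and 114 CPM in control HSC and 291, 224 and 255 CPM in Jarid2-KO HSC, and at 78.6, 82.4 and 49.1 CPM in control MPP and 147, 256 and 210 CPM in Jarid2-KO MPP. Neither cell type's groups overlapped. The log2 fold change was 1.09 (SE 0.21, edgeR adjusted p = 0.039) in HSC and 1.55 (SE 0.22, edgeR adjusted p = 0.00365) in MPP. Without any 1 library the adjusted p of the HSC change lay between 0.0721 and 0.173. Myc overlapped between genotypes, with log2 differences of -0.12 in HSC and -0.01 in MPP.

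In Vav HSC, no ribosome biogenesis gene passed the test for the Jarid2 deletion: 0 of 48 by edgeR at adjusted p under 0.05, 6 at unadjusted p under 0.05, where edgeR called 0.569% of all 15818 genes tested. DESeq2 called 0 of the 48 (4.22% of all genes) and limma-voom 4 (8.33%, against 8.97% of all genes). The log2 differences were positive for 33 of 48, with a median of 0.15 against -0.03 over all genes. The most positive were Noc4l, a processome factor (1.01, SE 0.37, edgeR adjusted p = 0.204), Nle1, a large-subunit assembly factor (0.97, SE 0.31, edgeR adjusted p = 0.168), and Bysl, a small-subunit maturation factor (0.93, SE 0.49). The most negative were Noc3l (-0.46), Utp20 (-0.29) and Taf1d (-0.28). For 13 genes (27.1%) all 3 Jarid2-KO HSC libraries lay above all 3 controls, where 13.3% of all genes tested did so. They were Nolc1, Mybbp1a, Rrp9, Nhp2, Utp15, Noc4l, Bysl, Nob1, Bop1, Ppan, Mrto4, Nle1 and Surf6. Only Noc3l, a large-subunit factor, lay wholly below (2.08%, against 13.3% of all genes).

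In Vav MPP the 48 genes had a median near 0. None passed the test (0 by edgeR, 10 at unadjusted p under 0.05; edgeR called 0.948% of all genes). DESeq2 called 1 (7.06% of all genes) and limma-voom 0 (2.91%). The log2 differences were positive for 26, with a median of 0.02, the same as over all genes (0.02). Ppan (1.26), Gar1 (1.16) and Bysl (1.12) were the most positive and Polr1a, the largest subunit of RNA polymerase I (-0.59), Polr1e (-0.47) and Nop58 (-0.35) the most negative. The Jarid2-KO libraries lay wholly above the controls for 5 genes (Fbl, Nhp2, Gar1, Imp3 and Noc4l; 10.4%, against 10% of all genes). They lay wholly below for Polr1a and Polr1e (4.17%, against 11.9% of all genes). The Jarid2-KO effect in MPP minus that in HSC gave 0 calls by edgeR, 2 at unadjusted p under 0.05, and 0 by DESeq2 and by limma-voom, with 0% of all genes called. Its median was -0.07 over the 48 genes and 0.07 over all genes; Gar1 (0.91), Imp3 (0.74) and Fbl (0.66) were most positive and Rrp1b (-0.59), Nob1 (-0.57) and Polr1e (-0.48) most negative. Mycn gave 0.46 (SE 0.30) and Myc 0.11 in that same difference.

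Averaged over HSC and MPP, 4 of the 48 genes rose with the Jarid2 deletion and none fell by edgeR at adjusted p under 0.05 (8.33%), while 11.7% of all genes tested were called; 14 of the 48 had an unadjusted p under 0.05. DESeq2 called 8 of the 48 (19.6% of all genes) and limma-voom 6 (21.6% of all genes). The edgeR count was 0 without any 1 of Control HSC replicate 2, Control MPP replicates 1, 2 and 3 and Jarid2-KO HSC replicates 1 and 2, while 2.74% to 5.77% of all genes were called. It was 1 without Control HSC replicate 3 (5.91% of all genes), 2 without Jarid2-KO MPP replicate 1 (11.7%), 7 without replicate 2 (9.96%) and 8 without replicate 3 of that group (20.4%). The median over the 48 genes was 0.12, against -0.01 over all genes, and 28 were positive; Mycn gave 1.32 (SE 0.15, edgeR adjusted p = 0.000399) and Myc -0.06. The share called among the 48 was thus below that of the whole table.

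The 4 genes that rose came from 3 of the roles. Noc4l (ENSMUSG00000033294, mm10 chromosome 5, 110648418 to 110653417), a processome protein, stood at 37.3, 29.9 and 46.7 CPM in control HSC and 85.9, 85.4 and 66.3 CPM in Jarid2-KO HSC, and at 49.3, 45.6 and 44.9 CPM in control MPP and 166, 51.3 and 52.7 CPM in Jarid2-KO MPP. The groups did not overlap in either cell type, and 1 Jarid2-KO MPP library was far above the others. The mean log2 fold change was 0.99 (SE 0.26, edgeR adjusted p = 0.0309).

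Nle1 (ENSMUSG00000020692, chromosome 11, 82900768 to 82908411), whose protein helps remodel the large-subunit precursor, stood at 25.7, 27.5 and 38.8 CPM in control HSC and 69.8, 60.6 and 57.1 CPM in Jarid2-KO HSC. In MPP it was 48.7, 43.6 and 35.8 CPM in controls and 103, 44.8 and 40.6 CPM in Jarid2-KO, so the MPP groups overlapped. Its mean log2 fold change was 0.77 (SE 0.22, edgeR adjusted p = 0.0394).

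Imp3 (ENSMUSG00000032288, chromosome 9, 56937475 to 56938398), a processome protein bound to the U3 snoRNA, stood at 30.4, 18.8 and 15.3 CPM in control HSC and 30.3, 30.8 and 23.6 CPM in Jarid2-KO HSC, which overlapped. In MPP the controls gave 12.9, 18.7 and 13.1 CPM and the Jarid2-KO libraries 38.9, 28.1 and 25.8 CPM, with no overlap. The mean log2 fold change was 0.70 (SE 0.21, edgeR adjusted p = 0.0443). Rrp9 (ENSMUSG00000041506, chromosome 9, 106475963 to 106485424), a protein of the U3 box C/D particle, gave 10.7, 15.4 and 18.2 CPM in control HSC and 33.1, 29.8 and 21.7 CPM in Jarid2-KO HSC, without overlap. Its MPP values of 17.2, 24.9 and 13.2 CPM in controls and 51.3, 27.8 and 17.7 CPM in Jarid2-KO overlapped, and its mean log2 fold change was 0.85 (SE 0.26, edgeR adjusted p = 0.0477). The next genes outside the threshold were Ubtf, the upstream binding factor of RNA polymerase I (0.64, edgeR adjusted p = 0.0509), Ppan (1.04, edgeR adjusted p = 0.0651), Bysl (1.03, edgeR adjusted p = 0.068) and Bop1 (0.80, edgeR adjusted p = 0.0703). Ppan, Bysl and Bop1 are assembly factors.

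**Figure D2:**
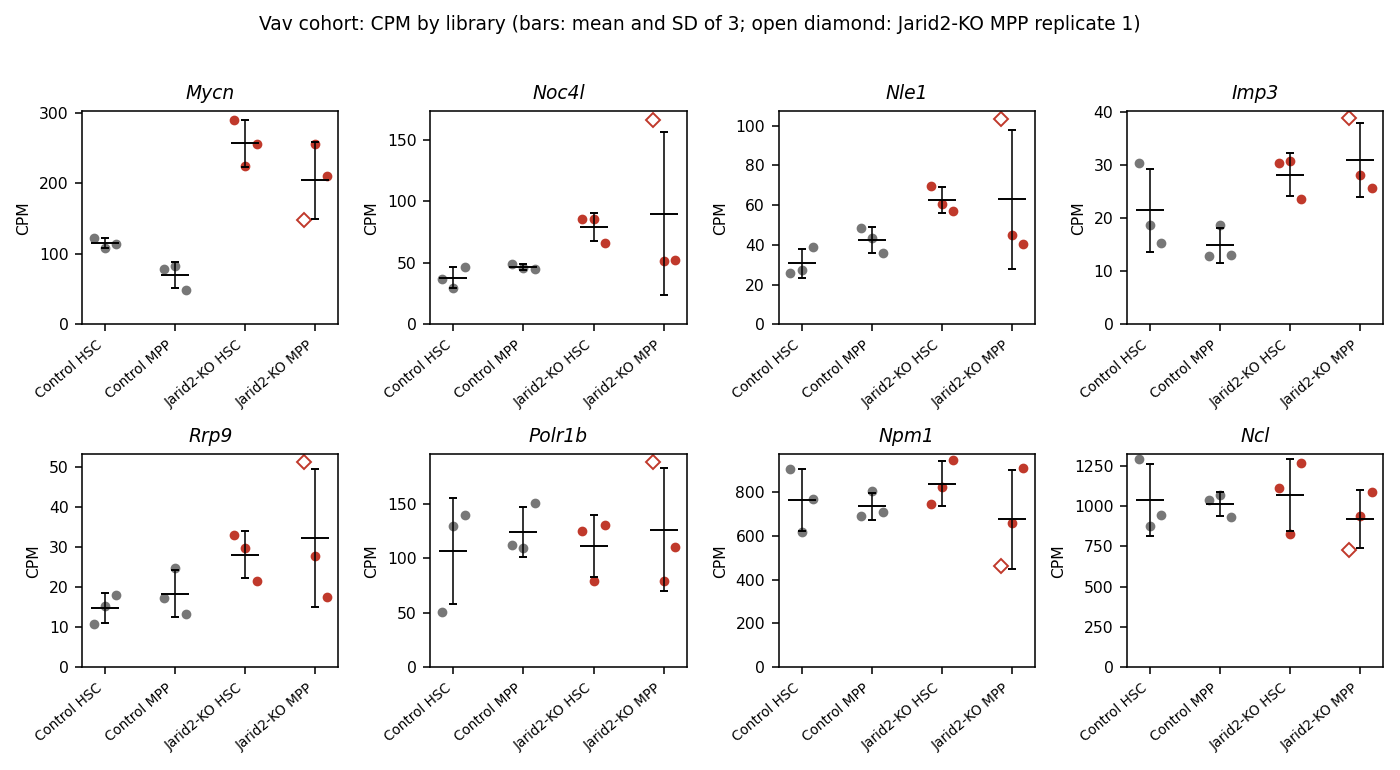
CPM of Mycn and 7 ribosome biogenesis genes in the 12 Vav libraries, by group; each point is 1 library, bars give the mean and SD of 3, and the open diamond is Jarid2-KO MPP replicate 1. Mycn is higher in all Jarid2-KO libraries than in all controls, Npm1 and Ncl overlap between genotypes, and the diamond is the highest of 12 for Noc4l, Nle1, Imp3, Rrp9 and Polr1b.

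The medians differed in sign between roles. For the averaged effect the median was -0.19 over the 7 genes of RNA polymerase I and its factors (3 positive), 0.02 over the 6 abundant nucleolar proteins (3 positive), 0.25 over the 4 box C/D proteins, 0.28 over the 3 box H/ACA proteins, -0.02 over the 9 processome proteins (4 positive), 0.29 over the 5 late small-subunit factors and 0.17 over the 14 large-subunit factors (10 positive). Jarid2-KO MPP replicate 1 enters these medians. Its median log2 level, each gene centred on its cohort mean, was 0.54 for box C/D, against -0.03 and -0.21 in replicates 2 and 3. For late small-subunit factors it was 0.38 against -0.26 and -0.14, and for abundant nucleolar proteins -0.37 against -0.18 and 0.12. The part of this library in the role medians was not tested. The most abundant members did not pass the test. Npm1 stood at 905, 619 and 766 CPM in control HSC and 746, 821 and 948 CPM in Jarid2-KO HSC, and Ncl, the RNA-binding protein nucleolin, at 1293, 874 and 943 CPM against 1113, 828 and 1270 CPM; both overlapped. Polr1a (-0.36), Utp20 (-0.31) and Taf1d (-0.28) were the most negative.

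**Figure D3:**
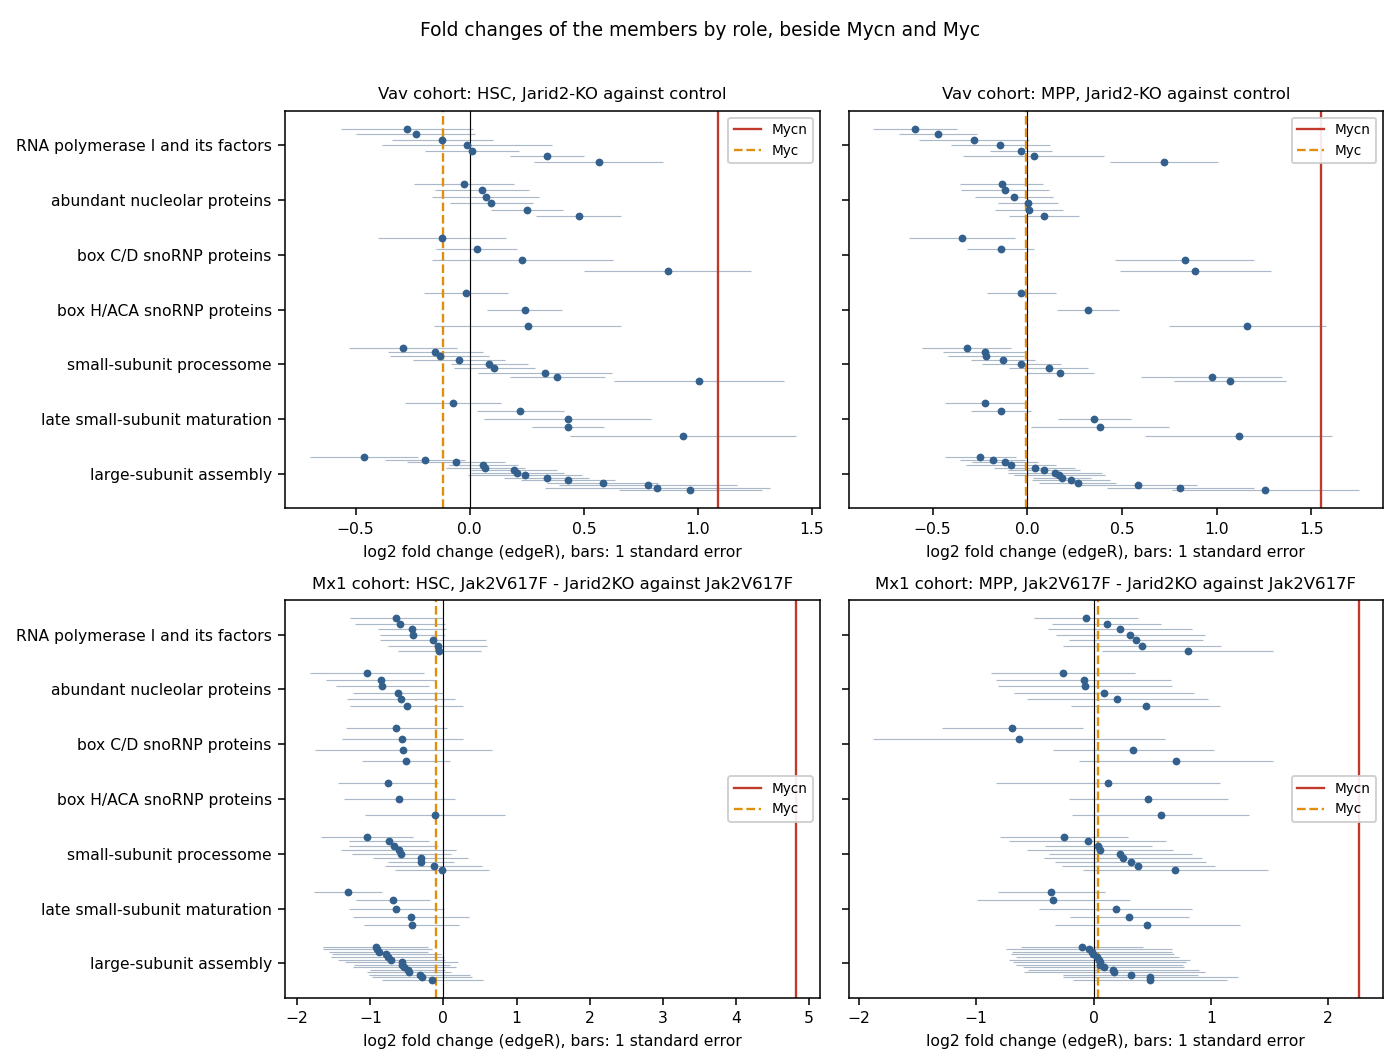
Log2 fold change (horizontal axis) of the 48 genes by role, for Jarid2-KO against control in Vav HSC and MPP and for the double mutant against Jak2V617F in Mx1 HSC and MPP; each point is 1 gene with a bar of 1 standard error, and lines mark Mycn (solid) and Myc (dashed). All 48 points lie to the left of Mycn in each panel, and in Mx1 HSC all lie below 0.

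Jarid2-KO MPP replicate 1 stood apart from its group. It was the highest of the 12 Vav libraries for 15 of the 48 genes, among them Noc4l, Nle1, Imp3, Rrp9 and Polr1b, and the lowest for 12, among them Npm1, Ncl, Nop56, Nop58 and Gnl3; for all 13316 genes over 1 CPM it was highest for 24.5% and lowest for 24.1%. Set against the mean of the other Jarid2-KO MPP libraries, Bysl was 4.76-fold, Ppan 4.63-fold, Noc4l 3.20-fold and Bop1 3.16-fold, and Taf1d 0.37-fold, Nop58 0.44-fold and Npm1 0.59-fold. It also carried the highest summed level of granulocyte and monocyte markers, 23634 CPM against 1273 to 13956 CPM in the other 11, and of immediate early genes, 1105 CPM against at most 247 CPM. Its summed markers of stroma and endothelium (668 against 108 to 216 CPM), erythroid cells (783 against at most 663 CPM) and S phase (4891 against at most 3770 CPM) were the highest of the 12, and its stem cell markers the lowest (885 against 1389 to 1720 CPM). In the averaged effect edgeR called 11.7% of all genes tested. There 6 of 13 granulocyte and monocyte genes and 2 of 7 immediate early genes rose and none fell. Their part in the differences was not tested. Without that library 2 genes were called in the averaged effect, Noc4l (log2 0.58, edgeR adjusted p = 0.0135) and Nle1 (0.48, edgeR adjusted p = 0.0344). Imp3 (0.59, edgeR adjusted p = 0.0558) and Rrp9 (0.58, edgeR adjusted p = 0.0708) then missed the threshold.

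Within the Vav groups none of the 48 genes passed the test for a slope on Mycn. The slope of each gene's log2 level on log2 Mycn was fitted with a term for each group, so that it rests on differences between replicates alone. It was positive for 12 of 48 genes, with a median of -0.28 per log2 unit of Mycn, against -0.02 over all genes. The edgeR test called 0 (9 at unadjusted p under 0.05), and 0% of all genes; DESeq2 called 1 (2.09% of all genes) and limma-voom 0. The standard errors of the 48 slopes lay between 0.24 and 0.67 (median 0.32). In simulated data the changed genes were drawn at random from all genes tested, not from the 48. Of those, this test found 1% with a slope of 1 and 25% with a slope of 2. The lack of calls therefore does not show that the genes do not follow Mycn. Without Control MPP replicate 3, edgeR called 5 slopes, 1 positive and 4 negative, beside 5.09% of all genes. Taf1d (1.06), Nop58 (0.72) and Gnl3 (0.54) were the most positive, and Bysl (-1.97, edgeR adjusted p = 0.227), Ppan (-1.59) and Bop1 (-1.44) the most negative. Jarid2-KO MPP replicate 1 had the lowest Mycn of its group (147 CPM) and the highest Myc of the cohort (702 CPM). Against the mean of the rest of its group, its lowest ratios were those of Taf1d (0.37), Nop58 (0.44) and Gnl3 (0.57). Its highest were those of Bysl (4.76) and Ppan (4.63). The part of this library in the order of slopes was not tested. Myc itself had a slope of -0.93 on Mycn (edgeR adjusted p = 0.277).

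Slopes on Myc in the Vav cohort were positive for 30 of 48 genes, with a median of 0.13 against 0.05 over all genes. Only Polr1b, the second-largest subunit of RNA polymerase I (ENSMUSG00000027395, chromosome 2, 129100995 to 129126594), passed the test, with a slope of 1.30 (SE 0.26, edgeR adjusted p = 0.0343), where 2.16% of all genes did; 15 had an unadjusted p under 0.05. Polr1b stood at 50.7, 130 and 139 CPM in control HSC, 112, 110 and 151 CPM in control MPP, 125, 78.9 and 130 CPM in Jarid2-KO HSC and 189, 79.6 and 111 CPM in Jarid2-KO MPP. Its groups overlapped throughout. The call was lost without Control HSC replicate 1 (edgeR adjusted p = 0.144), Control MPP replicate 1 (0.0617) or 3 (0.0765), Jarid2-KO HSC replicate 1 (0.0726), or Jarid2-KO MPP replicate 1 (0.0581) or 2 (0.162). Ppan (1.13) and Bysl (0.96) came next, and Taf1d (-0.67), Nop58 (-0.57) and Npm1 (-0.45) were the most negative. These genes also stood apart in Jarid2-KO MPP replicate 1, which had the highest Myc of the cohort (702 CPM). Its part in the order of these slopes was not tested.

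No ribosome biogenesis gene passed the test between the cell types in the Vav cohort. Between control MPP and HSC, edgeR called 0 of the 48 genes, 0 had an unadjusted p under 0.05, and DESeq2 and limma-voom called 0, where edgeR called 1.17% of all genes. The median was -0.08 against -0.02 over all genes; Nle1 (0.42), Surf6 (0.36) and Ppan (0.35) were the most positive and Imp3 (-0.59), Gar1 (-0.58) and Nhp2 (-0.22) the most negative. Mycn gave -0.79 (SE 0.21, edgeR adjusted p = 0.118) and Myc 0.02. Between Jarid2-KO MPP and HSC, edgeR called 0 (3 at unadjusted p under 0.05; 0 by DESeq2 and limma-voom), where it called 0.525% of all genes. Polr1c, Polr1e, Nop56, Imp4, Nob1, Rrp1b and Nip7 were wholly lower in Jarid2-KO MPP (14.6%, against 6.28% of all genes). Ppan (0.78), Bysl (0.53) and Fbl (0.45) were the most positive there and Polr1c (-0.45), Rrp1b (-0.42) and Nob1 (-0.41) the most negative, with a median of -0.10 against 0.05 over all genes. Mycn gave -0.32 and Myc 0.12.

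In the Mx1 cohort Mycn was low without the Jarid2 deletion and higher in every double-mutant library. It stood at 1.63 and 8.68 CPM in control HSC, 2.35 and 4.87 CPM in Jak2V617F HSC and 54.7 and 196 CPM in double-mutant HSC. In MPP it was 5.60 and 8.20 CPM in controls, 5.03 and 11.0 CPM in Jak2V617F and 25.3 and 56.0 CPM in double mutants. The double mutants lay wholly above the other groups in both cell types. Against Jak2V617F the log2 difference was 4.82 (SE 0.91, edgeR adjusted p = 0.202) in HSC and 2.26 (edgeR adjusted p = 1.00) in MPP, and against control 4.26 (edgeR adjusted p = 0.0777) and 2.37 (edgeR adjusted p = 0.762). With a term for the 6 libraries above 4% heart counts, the HSC differences passed (edgeR adjusted p = 0.00934 against Jak2V617F and 0.0139 against control).

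None of the 48 genes passed the test in any of the 9 Mx1 comparisons between groups. In each, edgeR called 0, DESeq2 called 0 and limma-voom called 0, and edgeR called 0% of all 19616 genes tested. The standard errors of the 48 log2 differences lay between 0.45 and 1.26 (median 0.68), so differences as large as those of the Vav cohort were not detectable.

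In double-mutant HSC against Jak2V617F HSC, the log2 differences were below 0 for all 48 genes, with a median of -0.57 against -0.01 over all genes and 1 at unadjusted p under 0.05. In the same comparison all 13 granulocyte and monocyte markers were below 0 (median -3.81) and all 9 stem cell markers above 0 (median 2.70); none of them passed the test, and their part in the differences of the 48 genes was not tested. Rrp12, a small-subunit export factor, gave the most negative value (-1.31, edgeR adjusted p = 0.665), followed by Nolc1 and Wdr75 (both -1.05); Imp3 (-0.02), Polr1e (-0.05) and Taf1d (-0.08) were nearest to 0. Rrp12 stood at 64.4 and 66.7 CPM in Jak2V617F HSC and 28.9 and 34.4 CPM in double-mutant HSC, which did not overlap. With the heart term the median stayed at -0.56 and Rrp12 fell by 1.32 on the log2 scale (edgeR adjusted p = 0.0264), the single gene of the 48 called, where 2.75% of all genes were.

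Against control HSC the double mutants gave a median of -0.67 over the 48 genes and 0.11 over all genes, with 4 positive and 2 at unadjusted p under 0.05. Imp3 (1.16), Ubtf (0.09) and Noc4l (0.06) were the most positive and Wdr74 (-1.40), Mrto4 (-1.36) and Nolc1 (-1.34) the most negative. Granulocyte and monocyte markers were below 0 for 13 of 13 there too (median -4.47). With the heart term the median was -0.20, and Rrp12 again was the single gene called (-1.39, edgeR adjusted p = 0.0305; 2.34% of all genes). The control and Jak2V617F comparisons share the double-mutant libraries.

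In MPP the double mutants gave a median of 0.14 against Jak2V617F (34 positive; -0.04 over all genes) and -0.23 against control (12 positive; -0.05 over all genes), with 0 at unadjusted p under 0.05 in both. All 13 granulocyte and monocyte markers were below 0 in both (medians -2.36 and -3.18). Polr1c (0.80), Nop56 (0.70) and Noc4l (0.70) were the most positive against Jak2V617F, and Rrp9 (-0.69), Fbl (-0.64) and Rrp12 (-0.36) the most negative. Against control they were Imp3 (0.94), Polr1c (0.61) and Bysl (0.56), and Fbl (-1.08), Rrp1b (-1.05) and Nop2 (-0.81). The sign against Jak2V617F turned with the heart term, to a median of -0.48.

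Jak2V617F alone gave a median of -0.09 in HSC (17 positive; 0.09 over all genes) and -0.36 in MPP (5 positive; -0.02 over all genes), with 0 at unadjusted p under 0.05 in both. In HSC, Imp3 (1.18), Noc4l (0.67) and Rrp9 (0.52) were the most positive and Utp15 (-0.91), Heatr1 (-0.53) and Wdr74 (-0.50) the most negative. In MPP they were Rrp9 (0.68), Imp3 (0.62) and Bysl (0.25), and Rrp1b (-1.01), Nop2 (-0.98) and Bop1 (-0.90). Both medians turned positive with the heart term (0.40 and 0.36). Myc gave -1.08 in the MPP comparison.

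Between MPP and HSC the medians were -0.53 in controls (0.05 over all genes), -0.81 in Jak2V617F (-0.01) and -0.07 in double mutants (0.02), with 0 of the 48 genes at unadjusted p under 0.05 in each. All 48 were below 0 in Jak2V617F, where both MPP libraries and 1 of the HSC libraries were above 4% heart counts. In controls Imp3 (0.48), Ubtf (0.37) and Noc4l (0.17) were the most positive and Polr1c (-1.06), Ltv1 (-1.05) and Wdr74 (-1.01) the most negative. In Jak2V617F Fbl (-1.52), Nop56 (-1.29) and Dkc1 (-1.19) were the most negative and Imp3 (-0.08), Rrp9 (-0.09) and Gar1 (-0.14) nearest to 0. In double mutants Bysl (0.78), Wdr74 (0.47) and Nhp2 (0.42) stood against Fbl (-1.60), Utp15 (-0.61) and Rrp1b (-0.59). With the heart term the medians were -0.22, -0.22 and -0.18.

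Within groups, the summed level of the ribosome biogenesis genes was lower where the heart-gene share was higher. In the 6 libraries under 4% heart counts the 48 genes summed to between 8189 and 10141 CPM, and in the 6 above it to between 3092 and 6086 CPM, with no overlap. Of the 4 groups that held 1 library of each kind, the median ratio of high to low was 0.390 in control MPP, 0.656 in Jak2V617F HSC, 0.428 in double-mutant HSC and 0.405 in double-mutant MPP. The same ratio over all genes was 1.12, 1.16, 0.889 and 1.06. The level was lower in the high library in all 4 groups for 38 of the 48 genes. Npm1 stood at 704 and 214 CPM in control MPP, 883 and 625 CPM in Jak2V617F HSC, 921 and 348 CPM in double-mutant HSC, and 674 and 273 CPM in double-mutant MPP, low share first.

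**Figure D4:**
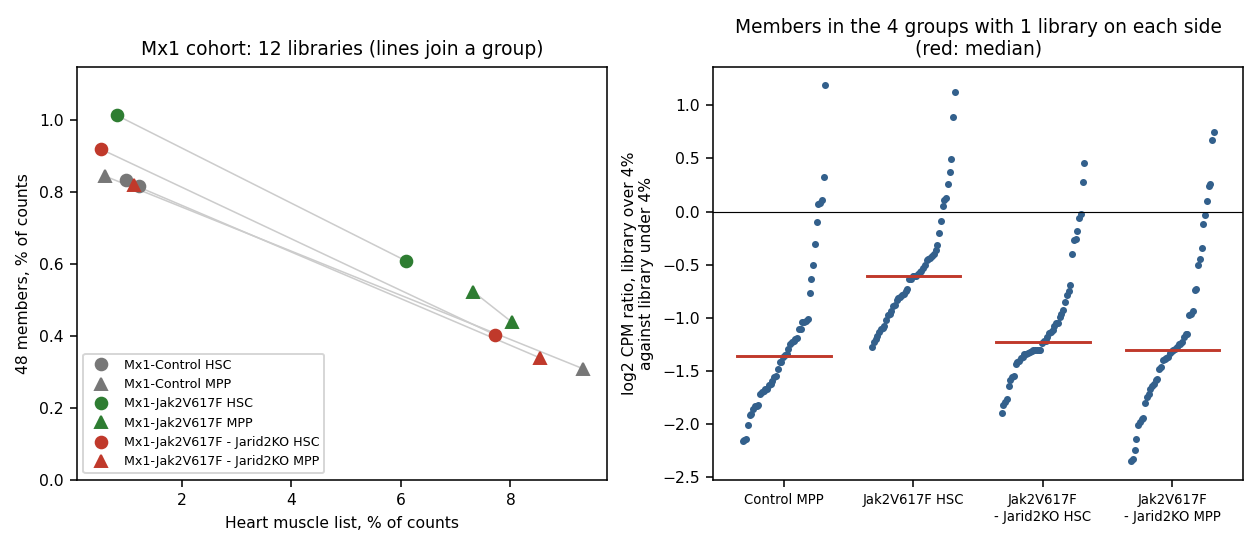
Left, the share of counts in the 48 genes against that in the heart muscle list (both in percent) for the 12 Mx1 libraries, each point 1 library, with lines joining a group; right, the log2 CPM ratio of each of the 48 genes between the library over 4% and the library under 4% in the 4 groups with 1 of each, with the median in red. The 6 libraries over 4% all lie below the 6 under it, and most ratios are below 0 in each of the 4 groups.

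Among libraries under 4% heart counts, single libraries can be set side by side, with no test. In double-mutant HSC replicate 2 Mycn was 83.3-fold that of Jak2V617F HSC replicate 1, while the median ratio of the 48 genes was 0.916 (19 higher, 29 lower). Against Control HSC replicates 1 and 2, Mycn was 120-fold and 22.5-fold and the median ratio of the 48 genes 1.11 (29 higher) and 1.10 (36 higher). In double-mutant MPP replicate 2 against Control MPP replicate 1, Mycn was 10.0-fold and the median ratio 0.984 (23 higher, 25 lower). The pairs also differed in markers: granulocyte and monocyte genes summed to 3036 CPM in double-mutant HSC replicate 2 against 58880, 75932 and 80912 CPM in its 3 partners, and to 6812 against 79977 CPM in the MPP pair. Stem cell markers summed to 1282 CPM against 160, 158 and 175 CPM, and to 867 against 132 CPM. Their part in the ratios of the 48 genes was not tested.

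Within the Mx1 groups most of the 48 genes passed the test for a slope on Myc and none for a slope on Mycn; whether these slopes differ was not tested. On Mycn the slope was positive for 41 of 48, but its median was 0.14 per log2 unit (-0.00 over all genes). No gene passed: 0 by edgeR, 0 at unadjusted p under 0.05, 0 by DESeq2 and by limma-voom, and 0% of all genes. The standard errors of these slopes lay between 0.20 and 0.57 (median 0.32). In simulated data, drawn as for the Vav cohort, the test found 7% of genes with a slope of 1, so the lack of calls leaves such slopes possible. It found 44% with a slope of 2, and 16.4% of its calls fell on genes that had not been changed. Slopes on Myc were not simulated. Noc4l (0.48), Taf1d (0.46) and Ppan (0.44) were the most positive, and Bysl (-0.33), Heatr1 (-0.23) and Polr1a (-0.16) the most negative. On Myc, 36 of 48 genes rose and none fell (36.5% of all 19615 genes tested were called in either direction), with a median slope of 0.86 against -0.06 over all genes; DESeq2 called 37 (43.6% of all genes) and limma-voom 36 (39.7%). With a term for the libraries above 4% heart counts, 0 of the 48 slopes on Myc were called by edgeR (7 at unadjusted p under 0.05; 0% of all genes), and the median was 0.55. Without that term the called genes were 5 of 7 RNA polymerase I genes, 6 of 6 abundant nucleolar proteins, 2 of 4 box C/D, 2 of 3 box H/ACA, 6 of 9 processome, 3 of 5 late small-subunit and 12 of 14 large-subunit genes.

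The steepest slopes on Myc, again without the heart term, were those of Nob1, the endonuclease that finishes the small-subunit RNA (1.22, SE 0.16), Nop56 (1.22, SE 0.14) and Noc4l (1.17, SE 0.19). Nob1 stood at 163 and 131 CPM in control HSC, 130 and 36.4 CPM in control MPP, 184 and 94.4 CPM in Jak2V617F HSC, 59.3 and 80.2 CPM in Jak2V617F MPP, 186 and 73.7 CPM in double-mutant HSC and 171 and 34.0 CPM in double-mutant MPP, the library with less heart RNA listed first in each group that held both kinds. In those groups the first value was higher throughout. Imp3 (-0.51), Rrp12 (-0.17) and Polr1a (-0.05) were the most negative. The genes without a call were Bysl, Fbl, Gar1, Heatr1, Imp3, Noc3l, Polr1a, Ppan, Rrp12, Rrp9, Ubtf and Utp20.

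Myc and heart share went together in the same libraries: Myc stood at 349 to 635 CPM in the 6 libraries under 4% heart counts and 128 to 302 CPM in the 6 above. Of the 19 heart genes tested, 18 fell with Myc, as did 8 of 9 markers of stroma and endothelium. Of all genes tested, 36.5% were called for that slope in either direction. The slope on Myc cannot be told apart from the heart share in these libraries. Mycn overlapped between both kinds, at 1.63 to 196 CPM and 4.87 to 54.7 CPM.

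**Figure D5:**
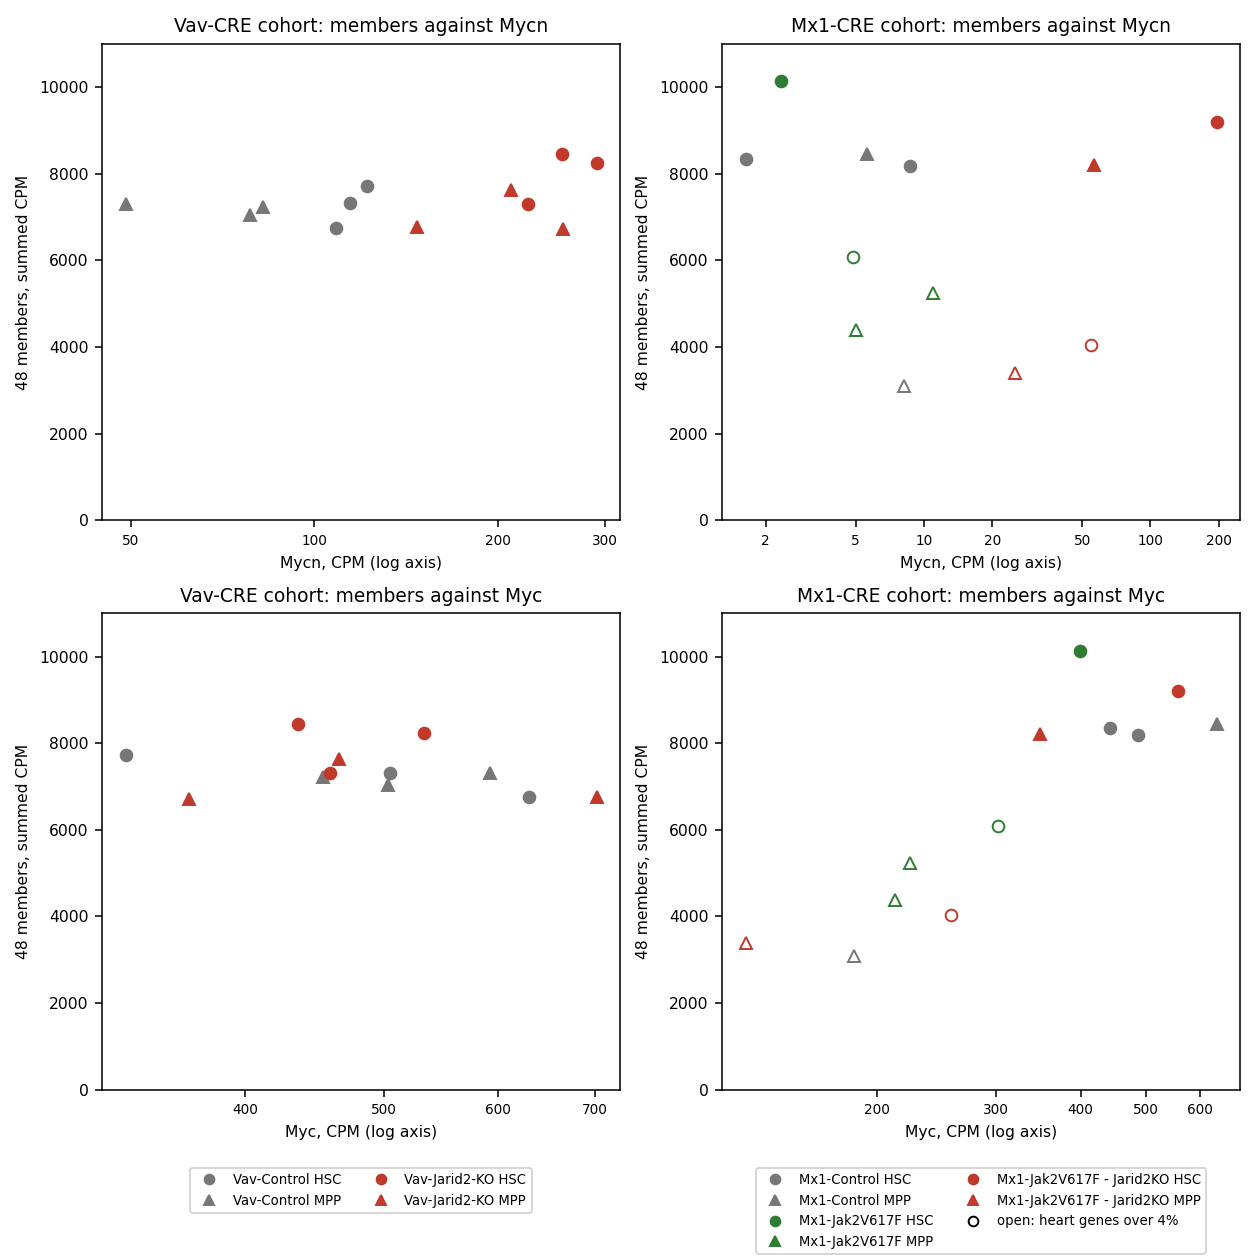
Summed CPM of the 48 genes against CPM of Mycn (top) and Myc (bottom, both on log axes) in the Vav (left) and Mx1 (right) libraries, each point 1 library, with open symbols for libraries over 4% heart counts. The open Mx1 points lie low on both axes for Myc and between 4.87 and 54.7 CPM for Mycn, and the Vav points stay between 6718 and 8455 CPM.

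The rest of the pathway was taken from a list that holds none of the 48 genes. Of 90 other ribosome biogenesis genes, 11 rose and 3 fell in the averaged Vav Jarid2-KO effect (median 0.11, against -0.01 over all genes), where 11.7% of all genes were called. Within the Mx1 groups 65 rose and 1 fell with Myc (median slope 0.70), where 36.5% of all genes were called, and with the heart term none was called, as over all genes. Eif6 and Nol6 were among the 11 and Taf1a, Krr1 and Ddx52 were the 3. Of 24 MYC targets outside the ribosome, 9 rose in the averaged Vav effect and none fell, where 11.7% of all genes were called. The median over the 24 was 0.20, against -0.01 over all genes. The 9 were Srm, Cad, Ldha, Cdk4, Shmt2, Eif4ebp1, Slc7a5, Odc1 and Slc3a2. They include enzymes of polyamine and nucleotide synthesis, and amino acid transporters.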

How the data were processed

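RNA-seq was made with a SMARTer ultra-low-input kit that does not mark strand, per the labels' protocols, so overlapping and antisense genes cannot be told apart. The authors deposited gene counts with CPM and RPKM values for 12 libraries a cohort (mm10; the submitters' processing notes name Partek 6.6, HTSeq 0.8.0, featureCounts 1.4.5, Subread and STAR 2.0.4 without their roles). The deposited CPM and RPKM describe levels; every test used the deposited counts. The 8 H3K27me3-ChIP samples were not analysed here. Each cohort was fitted on its own with edgeR 4.0.16 (R 4.3.3), TMM scaling, filterByExpr, 1 term a group and the quasi-likelihood test, with Benjamini-Hochberg adjustment over all genes tested; fold changes are on the log2 scale and the threshold was adjusted p under 0.05. Slopes replaced 1 contrast by the log2 CPM of Mycn or Myc beside the group terms. DESeq2 1.42.0, limma-voom (limma 3.58.1), other scalings and filters, a replicate block, a heart term and each library left out were the alternatives. Scripts were tested on simulated data. The members and lists were chosen with earlier results of these data known. Named are Mycn, Myc, every member past the threshold, and the 3 most positive and 3 most negative members of each comparison, and the 3 highest and 3 lowest by RPKM. Other named genes were chosen after their values were seen.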

Additional observations from a re-analysis of the deposited data

How the results depend on the processing

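The averaged Vav Jarid2-KO effect (4 of 48 genes called) gave 8 calls with no filter (8.9% of all genes) and 8 by DESeq2 (19.6%), and 0 to 8 with 1 library left out (2.74% to 20.4% of all genes). In HSC alone (0) the calls were 2 with no filter (2.55% of all genes), 4 by limma-voom (8.97%) and 2 with only the groups compared (2.02%). In MPP alone (0) they were 4 with no filter (4.02%), 1 by DESeq2 (7.06%) and 0 to 3 with 1 library left out (3 without Jarid2-KO MPP replicate 3, 9.03%). The Vav slope on Mycn (0) gave 5 with no filter (1.76%), 1 by DESeq2 (2.09%) and 0 to 5 with 1 library left out (5 without Control MPP replicate 3, 5.09%). The Vav slope on Myc (1) gave 2 with DESeq2 size factors (2.18%), 5 with no filter (3.74%), 2 with the stricter filter (2.92%), 2 by DESeq2 (10.3%), 2 by limma-voom (3.4%), 0 with cell type terms only and 0 to 2 with 1 library left out. In the Mx1 cohort the heart term gave 1 call in double-mutant HSC against Jak2V617F and 1 against control. For the slope on Myc it gave 0 instead of 36 (36.5% of all genes without the term). The shares of all genes with the heart term are given above. That slope gave 34 to 37 calls with 1 library left out. Where a count here has no share of all genes beside it, it cannot be set against the whole table. The cause was not tested.

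Medians over the 48 genes in Mx1 changed sign with 1 library left out: double mutant against Jak2V617F in MPP ran from -0.53 to 0.67, Jak2V617F against control in MPP from -0.84 to 0.58 and in HSC from -0.55 to 0.19, double mutant against control in MPP from -1.01 to 0.69, and double-mutant MPP against HSC from -0.93 to 0.39. In the Vav cohort the Jarid2-KO median changed sign in MPP (-0.02 to 0.10), and it ran from 0.09 to 0.22 in HSC and from 0.10 to 0.15 for the averaged effect.

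With the replicate block Noc4l (edgeR adjusted p = 0.0443), Imp3 (0.0425) and Ubtf (0.0378) passed the threshold in the averaged effect. Nle1 (0.0567) and Rrp9 (0.0736) missed it. Mycn in HSC missed the threshold with the block (0.0752), and in MPP with only the groups compared (0.0817). Whether the numbers pair the samples was not settled by residual correlations. Between same-numbered HSC and MPP libraries of a genotype these ran from -0.261 to 0.451 in the Vav cohort. Their mean was 0.119, against -0.064 between libraries of other numbers, and 6 of 12 libraries correlated best with their own number. In the Mx1 cohort the same-numbered correlations ran from -0.194 to 0.820 (4 of 6 over 0.1), and 8 of 12 libraries correlated best with their own number. With 2 libraries a group, however, the 2 residuals of a gene are equal and opposite. Correlations between other numbers therefore mirror these exactly (-0.820 to 0.194), and both counts hold each value more than once. With 2 libraries a group, the Mx1 contrasts called 0% of all genes in the main edgeR fit. In simulated data that test found 0% of genes with a log2 change of 2, so large differences can be missed too.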

Other observations

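The 10 genes with CACGTG in the promoter window and the 34 with a window but no match differed in their median slopes within the Vav groups. On Myc the medians were 0.41 and 0.00, and on Mycn -0.44 and -0.09. Both slopes hold Jarid2-KO MPP replicate 1, with the highest Myc of the Vav cohort and the lowest Mycn of its group. The split was looked at after the slopes were known and was not tested. It was smaller for the slope on Myc in the Mx1 cohort (0.87 and 0.88) and for the averaged Vav Jarid2-KO effect (-0.02 and 0.12).

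Of the cell cycle lists, 18 of 20 S phase genes and 20 of 20 mitosis genes were called higher by edgeR in the slope on Myc within the Mx1 groups, where 36.5% of all genes were called in either direction; with the heart term none was called, as over all genes. In the averaged Vav Jarid2-KO effect 3 of 20 S phase genes were called higher and 3 of 20 mitosis genes lower, where 11.7% of all genes were called.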
